A study of Homo sapiens with 8 samples.

Results

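SNHG12 is a long noncoding RNA gene whose introns carry 4 small nucleolar RNAs, the H/ACA RNAs SNORA16A, SNORA44 and SNORA61 and the C/D RNA SNORD99. Crosslink sites of dyskerin and of GAR1 were counted in these 5 genes, out of 14409 genes with a site in any library of the series. The members were taken by their place in the genome and not by a measured value, but with earlier results of these data known. All sites on the strand of SNHG12 were taken, and a site in the 5 nt before a snoRNA was counted with that snoRNA. Sites of the host outside the 4 snoRNAs were counted as SNHG12.

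The material was U2OS, a human osteosarcoma line, without any knockdown or drug. All cells were irradiated with 1500 J/m2 at 254 nm, and RNA bound to the precipitated protein in the nuclear fraction was mapped by iCLIP, in which a cDNA that stops at the crosslinked nucleotide marks the contact. The 4 groups of 2 libraries were dyskerin (mouse antibody), GAR1 (rabbit antibody), and IgG controls labelled for dyskerin and for GAR1. Mouse IgG was used for both controls, so the rabbit antibody to GAR1 had no control of its own species. The labels number the replicates without saying that they came from separate cultures, so p-values measure only the spread between these libraries.

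Depth differed widely. The dyskerin libraries held 1693951 and 1875459 cDNAs in significant sites, the GAR1 libraries 585454 and 1976518, the dyskerin IgG libraries 146514 and 8183, and the GAR1 IgG libraries 295255 and 10701. The second library of each IgG set stood apart by its low depth, where 3 cDNAs were worth 367 and 280 CPM (cDNAs in 1000000 peak cDNAs). The line's label was checked on mesenchymal and bone markers. In dyskerin 5 of the 6 (VIM, FN1, COL1A1, SPARC and RUNX2) had sites in both libraries and COL1A2 had none, and PTPRC, EPCAM, ALB and CDH5, which mark other cell types, had none in any of the 8 libraries. In the first GAR1 library and in 3 of the 4 IgG libraries the mesenchymal markers had no site either. The nuclear RNA MALAT1 held 41857 and 44633 CPM in dyskerin and 4578 and 3332 in GAR1. Mitochondrially encoded RNAs, which lie outside the nucleus, held 5639 and 5202 CPM in dyskerin, 3042 and 4065 in GAR1 and 3353 to 18086 in IgG.

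H/ACA snoRNAs fold into a pair of hairpins joined by a hinge with the H box, ANANNA, and end with an ACA box close to the 3′ end. They guide pseudouridylation of ribosomal RNA. Dyskerin is the pseudouridine synthase of the particle and sits on the guide RNA, while GAR1 binds dyskerin. C/D snoRNAs guide 2′-O-methylation, and carry the C and D boxes in place of H and ACA; neither dyskerin nor GAR1 belongs to their core particle. In vertebrates both kinds are mostly cut out of introns of host genes, and SNHG12 is a host whose spliced RNA encodes no known protein.

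The gene lies on the minus strand of chromosome 1 (GRCh38, chr1:28578538-28583132, ENSG00000197989.15). In its canonical GENCODE transcript of 6 exons, SNORA16A (chr1:28580920-28581056, 137 nt) lies in intron 2, SNORA44 (chr1:28580381-28580512, 132 nt) in intron 3, SNORA61 (chr1:28579764-28579893, 130 nt) in intron 4 and SNORD99 (chr1:28578749-28578822, 74 nt) in intron 5. The H/ACA RNAs begin 54, 47 and 18 nt after the upstream exon, and SNORD99 ends 68 nt before the downstream exon. Of the 19 annotated transcripts, 3 hold SNORA16A within an exon, 3 hold SNORA44 and 4 hold SNORA61, and none holds SNORD99.

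The sequences are shown first with their boxes, because positions of crosslinks are given against these boxes later. Each is read 5′ to 3′ from the GRCh38 minus strand and begins 5 nt upstream of the annotated RNA, whose first nucleotide is position 1. In the H/ACA RNAs, capitals mark ANANNA matches that lie wholly in the middle part of the RNA (the second of 3 equal stretches), and the 3 bases that stand 3 nt from the 3′ end, the place of the ACA box. In SNORD99 they mark GATGA, the core of the C box, and CTGA, the D box.
SNORA16A (chr1:28580920-28581061): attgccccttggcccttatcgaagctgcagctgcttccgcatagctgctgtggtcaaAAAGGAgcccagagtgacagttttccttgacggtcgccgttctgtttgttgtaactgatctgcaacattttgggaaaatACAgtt
SNORA44 (chr1:28580381-28580517): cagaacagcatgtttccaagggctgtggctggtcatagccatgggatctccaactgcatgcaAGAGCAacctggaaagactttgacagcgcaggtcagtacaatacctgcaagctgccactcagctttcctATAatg
SNORA61 (chr1:28579764-28579898): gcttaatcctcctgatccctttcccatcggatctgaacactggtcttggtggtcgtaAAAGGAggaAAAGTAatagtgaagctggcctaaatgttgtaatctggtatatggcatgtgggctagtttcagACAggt
SNORD99 (chr1:28578749-28578827): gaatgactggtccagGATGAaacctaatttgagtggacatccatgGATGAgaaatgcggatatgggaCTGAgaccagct

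That middle part held ANANNA at positions 53 to 58 in SNORA16A, at 58 to 63 in SNORA44 and at 53 to 58 and 62 to 67 in SNORA61. The motif is loose, since 212 of 240 annotated H/ACA snoRNAs (88.3%) hold it there, so a match is only a candidate H box. SNORA16A and SNORA61 carry ACA 3 nt from their end, as 161 of the 240 (67.1%) do, and SNORA44 carries ATA in its place, as 23 (9.58%) do. SNORD99 has GATGA at 11 to 15 and 41 to 45, and CTGA at 63 to 66.

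All 3 H/ACA RNAs were crosslinked in every library, IgG included. SNORA61 had 7174 and 9017 cDNAs in dyskerin, 13093 and 39153 in GAR1, 1535 and 216 in the dyskerin IgG set and 9061 and 368 in the GAR1 IgG set. SNORA44 had 2155 and 2790 in dyskerin, 5809 and 15975 in GAR1, 228 and 32 in the dyskerin IgG set, and 3302 and 79 in the GAR1 IgG set. SNORA16A had 2708 and 3844 in dyskerin, 5086 and 14888 in GAR1, 236 and 48 in the dyskerin IgG set, and 2353 and 104 in the GAR1 IgG set. The C/D RNA SNORD99 was lower by more than an order of magnitude in every library. It had 98 and 56 cDNAs in dyskerin, 189 and 532 in GAR1, 5 in the first GAR1 IgG library and no called site in the other 3 IgG libraries. In a precipitate, a larger share of bound RNA and a larger amount of that RNA in the cells cannot be told apart.

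As CPM, SNORA61 stood at 4521 ± 405 in dyskerin and 21086 ± 1806 in GAR1, against 18437 ± 11257 and 32539 ± 2617 in their IgG sets (SD, n = 2 for each). SNORA44 stood at 1380 ± 152 in dyskerin and 9002 ± 1301 in GAR1, against 2733 ± 1665 and 9283 ± 2688. SNORA16A stood at 1824 ± 319 in dyskerin and 8110 ± 817 in GAR1, against 3738 ± 3009 and 8844 ± 1237. Both dyskerin libraries therefore lay below both GAR1 libraries for each of them. Both dyskerin libraries lay below all 4 IgG libraries for SNORA44 and SNORA61, and for SNORA16A the first lay below all of them and the second among them. SNORD99 stood at 43.9 ± 19.8 CPM in dyskerin and 296 ± 37.9 in GAR1, and by called sites both antibodies lay above all IgG libraries. In clusters, which are runs of neighbouring sites, it had 105 and 61 cDNAs in dyskerin, 207 and 596 in GAR1 and 27 in the first GAR1 IgG library. Per peak cDNA that IgG library then lay above both dyskerin libraries and below both GAR1 libraries. In the second library of each IgG set, however, 3 cDNAs were worth more than the dyskerin level. They were also worth more than the 269 CPM of the second GAR1 library. Levels like those were not detectable there.

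**Figure D1:**
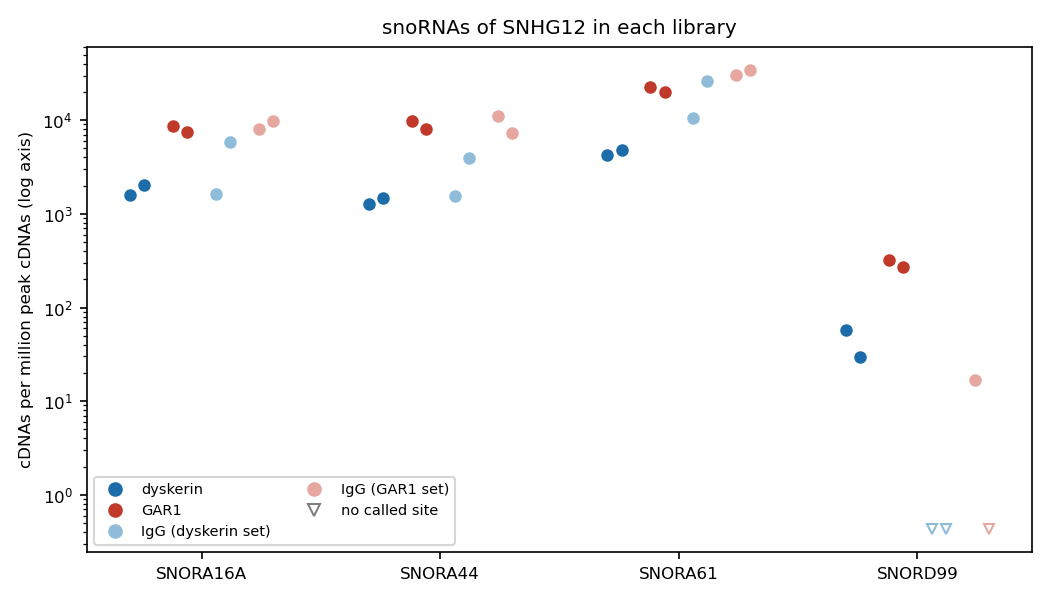
Level of each snoRNA of SNHG12 in CPM (vertical log axis), with a point per library in 4 groups of 2 and open triangles, drawn at an arbitrary height, for libraries with no called site. The mean of each H/ACA RNA was higher in IgG than with the antibody of the same set, and SNORD99 reached 296 CPM in GAR1 and 43.9 CPM in dyskerin on average against 1 IgG library with a site.

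To ask which members the antibodies enriched over IgG, edgeR's quasi-likelihood test was fitted across 6430 genes, all 5 members among them. It called 0 genes between dyskerin and its IgG set (0% of those tested) and 0 between GAR1 and its own (0%), and so none of the members. At an unadjusted p under 0.05 there were 1458 genes higher in dyskerin than in IgG and 7 below, and 922 higher in GAR1 than in IgG and 10 below. Genes were tested with at least 10 cDNAs in at least 2 libraries, which the deeper antibody libraries alone can supply. The excess of higher genes can follow from that filter, so it cannot show enrichment. DESeq2 called 0 and 87 genes in these comparisons, and again none of the members. Against IgG, dyskerin had log2 fold changes of −1.33 ± 1.05 (SE) for SNORA61, −0.29 ± 1.23 for SNORA44 and −0.18 ± 1.25 for SNORA16A, with edgeR adjusted p-values of 0.468, 0.967 and 0.979. The SNORA61 value was −3.92 and −4.17 without the first and without the second dyskerin library, −0.78 without the first IgG library of its set and −2.02 with total scaling, and passed in none of these. With a minimum of 50 cDNAs SNORA61 was called lower in dyskerin, with an edgeR adjusted p of 0.0238. That fit called 764 genes higher and 8 lower, and 4 of the 119 H/ACA snoRNAs tested were lower. SNORD99 had no called site in either dyskerin IgG library and did not pass (edgeR adjusted p = 0.346). Against an assumed floor of 3 cDNAs over that group, dyskerin was 2.22-fold higher per peak cDNA, or 2.00-fold with TMM scaling. That is not a lower limit, since cDNAs outside significant sites are not listed.

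In GAR1 against IgG the direction of the H/ACA members depended on the scaling. TMM gave log2 fold changes of 3.45 ± 1.14 for SNORA61, 3.87 ± 1.38 for SNORA44 and 3.96 ± 1.40 for SNORA16A (edgeR adjusted p = 0.315 for each), whereas scaling to total peak cDNAs gave −0.63, −0.047 and −0.12. The TMM factors ran from 0.0696 in the second GAR1 library to 3.81 in the second dyskerin IgG library. SNORD99 was higher in GAR1 with both scalings, by 8.16 ± 3.26 with TMM (edgeR adjusted p = 0.315) and by a log2 ratio of mean CPM of 5.13. Without the first GAR1 library the log2 fold changes were 4.19 for SNORA61, 4.59 for SNORA44, 4.70 for SNORA16A and 4.90 for SNHG12. GAR1 is then a single library, assumed to vary like the other groups. Without either dyskerin library, which enters this contrast only through the scaling and the spread, the 3 H/ACA RNAs turned to between −0.69 and −0.16.

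With dyskerin the locus took a smaller share of all cDNAs than it did with GAR1. It held 0.716% and 0.838% of all cDNAs with dyskerin and 4.13% and 3.57% with GAR1, against 1.36% and 3.62% in the dyskerin IgG set and 4.99% and 5.15% in the GAR1 IgG set. The IgG sets thus differed in the same direction. In edgeR's fit 4 of the 5 members passed, all lower in dyskerin than in GAR1. Across all genes the test called 52.6% of those tested, 4.32% as lower in dyskerin and 48.3% as higher. That split depended on the setting, since DESeq2 called 3575 genes higher in dyskerin and none lower, and edgeR called 419 lower and none higher with no filter on low counts, and 297 lower and none higher without the first GAR1 library. SNORA61 differed by −5.70 ± 1.26 on the log2 scale (SE; adjusted p = 0.00346 in edgeR), SNORA44 by −6.14 ± 1.53 (adjusted p = 0.0120) and SNORA16A by −5.62 ± 1.52 (adjusted p = 0.0246). SNORD99 did not pass at −6.20 ± 2.89 (adjusted p = 0.0579 in edgeR). SNHG12 outside its snoRNAs passed at −5.19 ± 2.01 (adjusted p = 0.0394 in edgeR), on 0 and 12 cDNAs in dyskerin and 1 and 25 in GAR1. Its counts thus came almost wholly from the second library of each protein. On the plain CPM scale the log2 ratios were smaller, at −2.22, −2.71, −2.15, −2.75 and −1.17 for these 5 genes in the order given. With DESeq2 no member was called, and its log2 fold changes for the H/ACA RNAs lay between −0.63 and −0.078. No member was called without the first or without the second dyskerin library either, although SNORA61 kept its direction at −4.91 and −5.16, and 2 were called without the second GAR1 library.

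Of the H/ACA snoRNAs, which all belong to the particle that both proteins share, 113 of 134 tested were lower in dyskerin than in GAR1 and none was higher, with a median log2 fold change of −6.17 against 5.56 over all genes. Of 167 C/D snoRNAs 63 were lower and none higher, with a median of −5.28. These counts rested on the fit. DESeq2 called no H/ACA snoRNA lower (median −0.53) and 2 C/D snoRNAs higher, and edgeR called 5 and 3 H/ACA snoRNAs lower without the first and without the second dyskerin library, 24 without the second GAR1 library and 14 with the replicate block. The C/D snoRNAs called lower were then 0, 0, 3 and 0. With sites of at least 3 cDNAs, 52 H/ACA snoRNAs were lower. Of 11 host lncRNAs 3 were lower and 1 was higher (median −4.43). With a 20 nt upstream margin 0 of 6 host lncRNAs were lower and 1 was higher (median 0.62). With exact annotated ends 11 of 23 were lower and 1 was higher (median −5.37). Of the mRNAs of H/ACA proteins and assembly factors 5 of 6 were higher in dyskerin (median 7.20), as was 1 of 3 mRNAs of C/D proteins (median 6.17). Over all genes tested 48.3% were higher. With no filter on low counts 0 of 9 and 0 of 4 of these mRNAs were higher, and 0 of all genes. In both comparisons with IgG no gene of these lists was called. The list medians were −0.14 for H/ACA snoRNAs, 0.87 for C/D snoRNAs, 3.90 for host lncRNAs, 3.96 for H/ACA proteins and 0.14 for C/D proteins in dyskerin against IgG, beside 2.00 over all genes. In GAR1 against IgG they were 4.65, 5.08, 5.13, 0 and 0, beside 0 over all genes. The medians of H/ACA snoRNAs, C/D snoRNAs and host lncRNAs there depended on the scaling. They were 0.52, 0.99 and 0.87 with total scaling, and 0.22, 0.86 and 0.0060 with DESeq2. A gene with no called site in GAR1 or its IgG set has a value of 0, so a median of 0 need not mean unchanged contact.

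Among H/ACA snoRNAs SNORA61 ranked between 1 and 6 by cDNAs in all 8 libraries, SNORA16A between 10 and 36 and SNORA44 between 18 and 44. SNORA61 alone took 3.69% and 3.31% of all H/ACA snoRNA cDNAs with dyskerin and 3.15% and 2.84% with GAR1, against 7.65% and 5.30% in the dyskerin IgG set and 4.36% and 5.75% in the GAR1 IgG set. Per nucleotide of annotated length SNORA61 led the locus in every library, with 32.6 and 37.0 CPM per nt in dyskerin and 172 and 152 in GAR1. SNORA16A followed SNORA44 in GAR1 (63.4 and 55.0 against 75.2 and 61.2 CPM per nt) and stood above it in dyskerin (11.7 and 15.0 against 9.64 and 11.3). The ranges of these neighbours overlapped in GAR1 and did not in dyskerin.

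SNORA61 held 59.1% and 57.4% of the locus cDNAs in dyskerin and 54.2% and 55.5% in GAR1, against 76.8% and 73.0% in the dyskerin IgG set and 61.5% and 66.8% in the GAR1 IgG set. All 4 antibody libraries lay below all 4 IgG libraries. SNORA16A held 22.3% and 24.5% in dyskerin and 21.0% and 21.1% in GAR1, against 11.8% and 16.2%, and 16.0% and 18.9%, in the IgG sets, so the antibody libraries lay above all IgG libraries. SNORA44 overlapped, with 17.8% and 17.7% in dyskerin, 24.0% and 22.6% in GAR1 and between 10.8% and 22.4% in IgG. SNORD99 took 0.808% and 0.356% in dyskerin and 0.782% and 0.754% in GAR1, against 0.0340% in the first GAR1 IgG library and no called site in the other IgG libraries.

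The mean difference between 4 antibody and 4 IgG libraries was −13.0 percentage points for SNORA61, 6.51 for SNORA16A and 0.666 for SNORD99. Each had an exact two-sided permutation p of 0.0286, the smallest that 70 arrangements allow, and an adjusted p of 0.0629 over the 11 measures run, so none passed. For SNORD99 the second library of each IgG set held only 296 and 551 locus cDNAs. Shares like those with the antibodies could go unseen there. SNORA44 differed by 5.80 points (exact permutation p = 0.114, adjusted p = 0.21). With each site counted once in place of its cDNAs, all 4 had an adjusted p of 0.0393. A deeper library can call weaker sites, however. SNORA44 had 88, 96, 90 and 101 called sites in the antibody libraries and 23, 6, 53 and 18 in IgG. Whether depth set these shares of sites was not tested. With libraries exchanged only within the dyskerin set and within the GAR1 set, 36 arrangements allow no exact permutation p below 0.0556, and the adjusted p was then 0.0679 with each site counted once and 0.102 with cDNAs, for all 4.

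**Figure D2:**
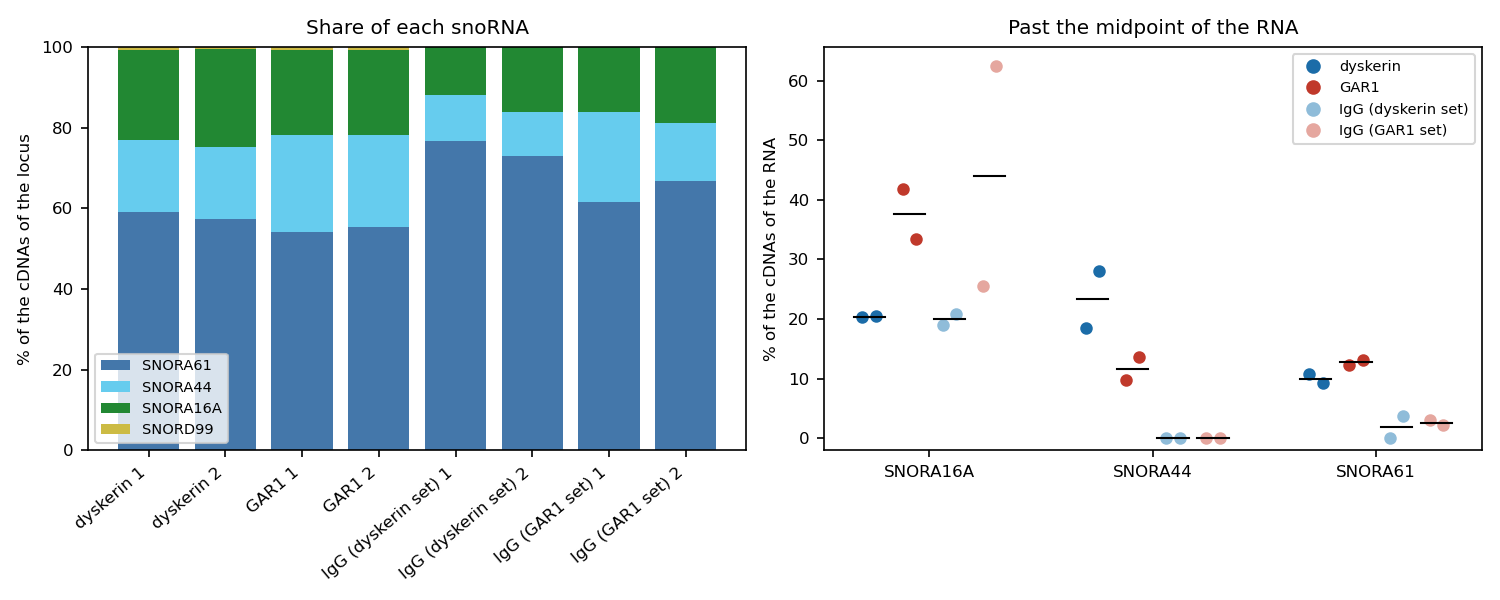
Left, share of the locus cDNAs (%, vertical axis) held by each snoRNA in each of the 8 libraries, as stacked bars. Right, share of each H/ACA RNA's cDNAs past its midpoint (%), with a point per library and a line at the mean of 2, where SNORA44 was at 18.6% and 28.0% in dyskerin and 9.78% and 13.6% in GAR1, with no called site in any IgG library.

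Crosslinks were next placed along each RNA. The capitals in the following lines mark the positions that ranked among the 3 highest for either protein, by the mean share of the RNA's cDNAs. A position of 0 or below lies in the 5 nt before the RNA. A cDNA that runs to the first nucleotide ends at position 0, since the site is placed at the nucleotide before the cDNA.
SNORA16A: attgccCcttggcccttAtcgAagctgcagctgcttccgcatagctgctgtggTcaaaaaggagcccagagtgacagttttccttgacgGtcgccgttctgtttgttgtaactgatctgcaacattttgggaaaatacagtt
SNORA44: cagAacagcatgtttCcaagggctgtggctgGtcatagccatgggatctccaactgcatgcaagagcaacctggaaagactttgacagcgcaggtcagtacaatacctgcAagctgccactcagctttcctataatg
SNORA61: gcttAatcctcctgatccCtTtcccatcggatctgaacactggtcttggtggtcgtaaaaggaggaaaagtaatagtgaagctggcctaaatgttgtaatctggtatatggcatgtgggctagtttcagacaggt
SNORD99: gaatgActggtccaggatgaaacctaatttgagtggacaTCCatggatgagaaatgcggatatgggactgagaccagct

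In SNORA61 both proteins had the same 3 leading positions, 16, 14 and 0. Position 16 held 18.1% ± 1.58 (SD, n = 2) of the RNA's dyskerin cDNAs and 9.87% ± 5.39 of its GAR1 cDNAs. The IgG libraries had the same position, with 568, 56, 1699 and 126 of their 1535, 216, 9061 and 368 cDNAs. In SNORA44 position 11 led for both proteins, with 22.2% ± 5.84 in dyskerin and 18.5% ± 8.78 in GAR1. The next in dyskerin were position 106 at 9.14% ± 3.15 and position −1 at 8.995% ± 5.83, and in GAR1 position −1 at 10.9% ± 0.355 and position 27 at 8.22% ± 0.739. In SNORA16A the leading positions of dyskerin were 49 (14.7% ± 4.29), 17 (12.3% ± 0.747) and 85 (12.1% ± 1.25), while those of GAR1 were 85 (19.9% ± 9.58), 13 (11.5% ± 0.307) and 2 (8.63% ± 0.891).

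**Figure D3:**
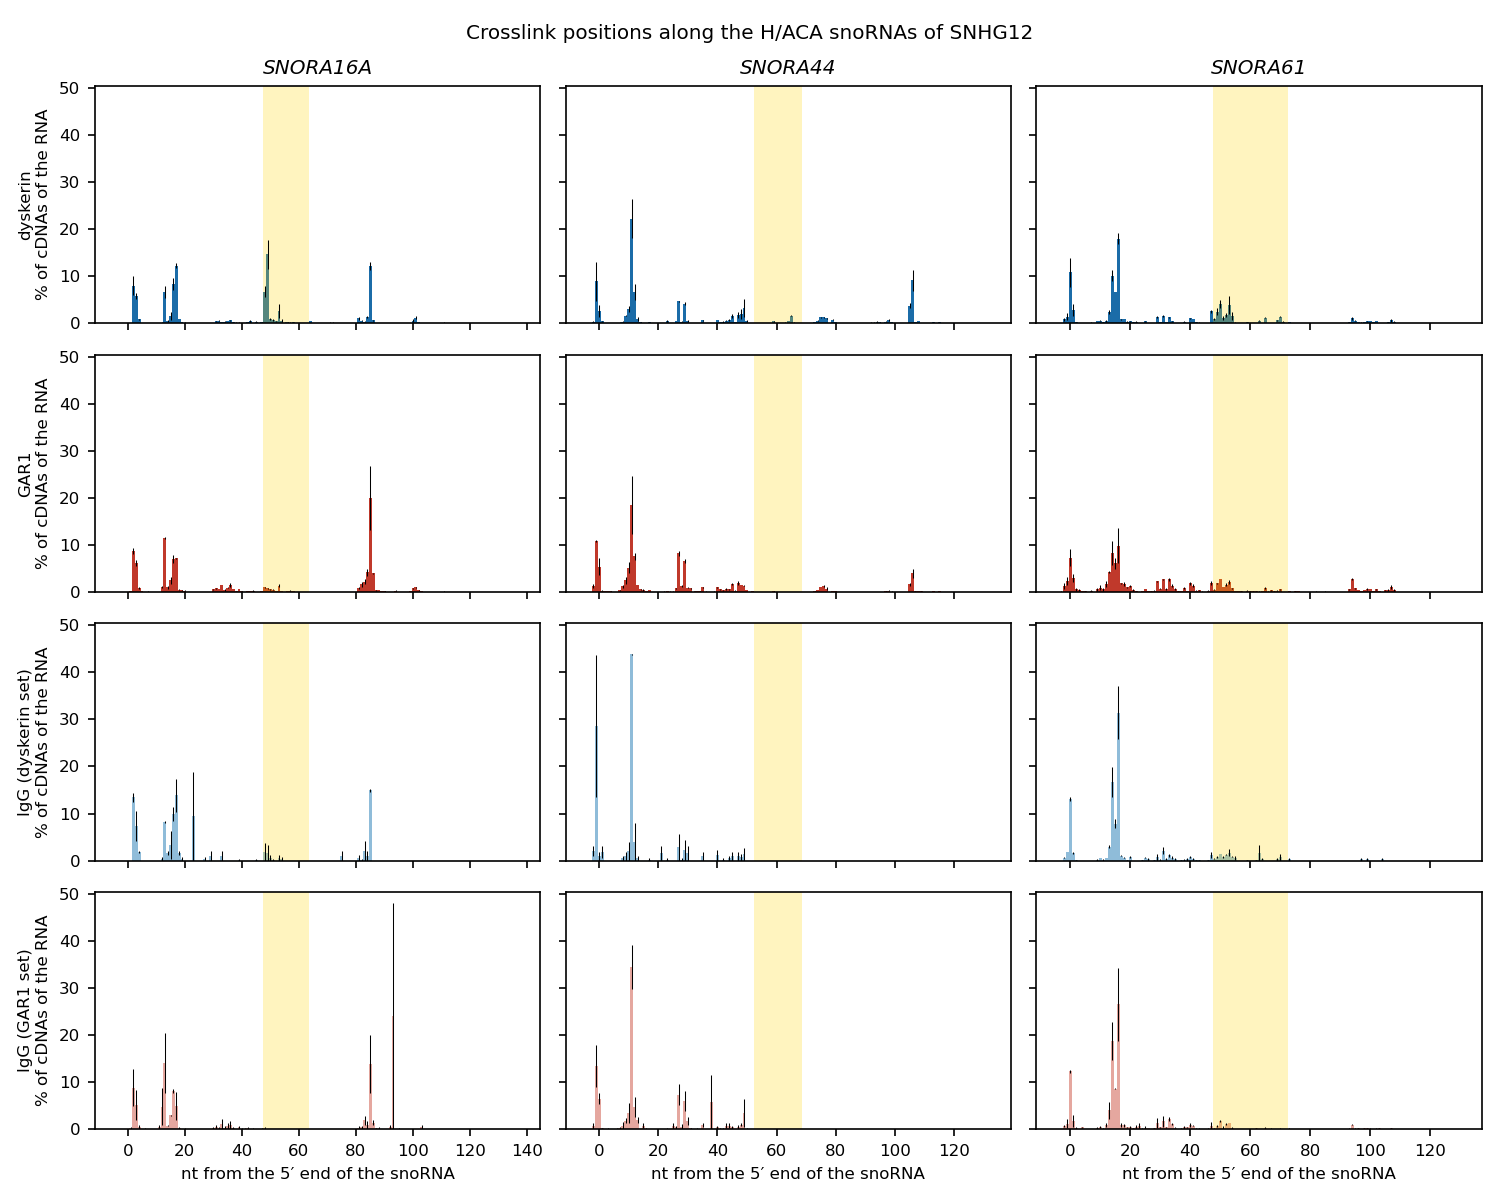
Share of each H/ACA RNA's cDNAs (%, vertical axis) at each position from its 5′ end (horizontal axis, in nt), with bars for the mean of 2 libraries, black lines from the lower to the higher library and yellow bands for the nucleotides within 5 nt of an ANANNA match. Position 11 of SNORA44 led in dyskerin at 22.2% and in GAR1 at 18.5%, position 106 of SNORA44 had no called site in IgG, and position 49 of SNORA16A stood at 14.7% in dyskerin and 0.762% in GAR1.

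The 3′ part was the place where the antibody libraries parted from IgG in SNORA44 and SNORA61. Past the midpoint SNORA44 held 400 of 2155 and 782 of 2790 cDNAs in dyskerin (18.6% and 28.0%), and 568 of 5809 and 2168 of 15975 in GAR1 (9.78% and 13.6%). None of the 228, 32, 3302 and 79 cDNAs of the IgG libraries lay there. The first GAR1 IgG library held more cDNAs in this RNA than either dyskerin library, and its last called site was at position 55 of 132, whereas all 4 antibody libraries reached position 116. Because each library lists only sites that were significant within it, IgG contacts below that threshold are not seen. At position 106, the second in dyskerin, that protein had 149 and 317 cDNAs and GAR1 175 and 788.

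Past the midpoint SNORA61 held 10.8% and 9.24% in dyskerin and 12.4% and 13.2% in GAR1, with 95% Wilson intervals that lay between 8.66% and 13.5%. The IgG libraries had no called site, 3.70% (8 of 216 cDNAs, 1.89% to 7.14%), 3.16% (2.82% to 3.54%) and 2.17% (8 of 368, 1.11% to 4.23%). Such intervals cover counting error only. The antibody libraries lay above all IgG libraries in both RNAs, by 17.5 points in SNORA44 and 9.14 points in SNORA61 (exact permutation p = 0.0286 and adjusted p = 0.0629 for both, so neither passed). With each site counted once the differences were 37.0 and 24.3 points, and both passed at an adjusted p of 0.0393 (exact permutation test). Neither passed with libraries exchanged only within their set (adjusted p = 0.0679, exact permutation test). The antibody libraries called more sites, at 88 to 101 against 6 to 53 in SNORA44, and whether depth set these differences was not tested. Of the 70 H/ACA snoRNAs with at least 10 cDNAs in every library, 18 (25.7%) had all antibody libraries above all IgG libraries in this measure and none (0%) had them below. The difference of SNORA44 was the largest of the 70, that of SNORA61 ranked 28, and the median was 7.33 points.

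SNORA16A differed from its neighbours here. Its share past the midpoint was 20.3% and 20.5% in dyskerin and 41.8% and 33.4% in GAR1, against 19.1% and 20.8% in the dyskerin IgG set and 25.5% and 62.5% in the GAR1 IgG set. Dyskerin lay within the range of its own IgG set, and GAR1 between the libraries of its IgG set, with a mean difference of −2.97 points over all libraries (exact permutation p = 0.829, adjusted p = 0.911). The 62.5% rested on 65 of 104 cDNAs, 50 of them at position 93, where the other 7 libraries had at most 14. Without that library the difference was 7.21 points.

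At the 5′ end the antibody and IgG libraries overlapped. The 5 nt upstream and the first 10 nt held 11.9% and 23.4% of SNORA61 in dyskerin, 14.9% and 19.1% in GAR1 and between 14.1% and 20.2% in IgG. The means differed by −0.17 points in SNORA61, −9.004 in SNORA44 and −2.98 in SNORA16A (exact permutation p = 0.971, 0.371 and 0.543). With each site counted once SNORA44 was at −19.2 points and SNORA16A at −4.43, both with an adjusted p of 0.0393 (exact permutation test). Depth can change such counts of sites. With exact annotated ends SNORA44 turned to 1.77. Of the same 70 H/ACA snoRNAs, 9 (12.9%) had all antibody libraries below all IgG libraries and 0 (0%) above, and none of the 3 members was among them. No site was called in the last 15 nt of any of the 3 RNAs, in any library, so the ACA box itself carried none. Reads under 10 nt were discarded before mapping, so contacts at the very 3′ end could not be read.

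Positions were then compared between the proteins. A position was taken to lean to a protein when both its libraries had at least 10 cDNAs there and both shares were at least 2 times both shares of the other protein. Of 180 positions compared in the 3 RNAs, 8 leaned to dyskerin and 14 to GAR1, beside 260 (6.45%) and 299 (7.42%) of 4032 positions over all H/ACA snoRNAs. The members were thus close to the background in number. A test of 2 libraries against 2 cannot give an exact p below 0.333, so these are given as values only.

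The strongest in cDNAs was position 49 of SNORA16A, a uridine 4 nt before the ANANNA match. It held 480 and 448 cDNAs in dyskerin and 42 and 104 in GAR1, though GAR1 had more cDNAs over the whole RNA. The share was 14.7% ± 4.29 in dyskerin and 0.762% ± 0.0900 in GAR1 (SD, n = 2), a ratio of 19.3. Its neighbour, position 48, held 6.70% ± 1.64 and 0.985% ± 0.0533. The first dyskerin IgG library had 8 and 9 cDNAs at these positions of 236, and the first GAR1 IgG library 0 and 11 of 2353. Farther along the same RNA, positions 83, 84 and 86 leaned to GAR1, with 3.93% ± 0.0589 against 0.687% ± 0.125 in dyskerin at position 86.

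Other positions leaned to dyskerin too. In SNORA44 positions 64 and 65, directly after the match at 58 to 63, had 12 and 16, and 33 and 49 cDNAs in dyskerin. In GAR1 position 64 had none and position 65 had 0 and 15. In SNORA61 position 63, inside the second match, held 46 and 48 cDNAs in dyskerin and 5 and 45 in GAR1, a share 7.66 times higher in dyskerin. Position 71 of SNORA61, 4 nt after that match, held 21 and 41 in dyskerin and 6 and 39 in GAR1. Position 64 of SNORA16A, 6 nt after its match, had 13 and 20 cDNAs in dyskerin and no called site in GAR1, and position 79 of SNORA44 lay farther from its match. The positions of SNORA44 and SNORA61 that leaned to GAR1 lay at 8, 28 and 31 and at 35, 44 and 75, and each held at most 1.33% of the RNA's GAR1 cDNAs on average.

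Over the 3 RNAs, 6 of the 34 positions compared within 5 nt of a ANANNA of the middle part leaned to dyskerin and none to GAR1, while of the 146 elsewhere 2 leaned to dyskerin and 14 to GAR1. In the other H/ACA snoRNAs the same split was 78 of 362 (21.5%) for dyskerin and 12 (3.31%) for GAR1 near the match, and 174 (4.99%) and 273 (7.82%) of 3490 elsewhere. The window was chosen after the positions of the members had been seen.

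Summed over this window, SNORA16A held 34.3% and 20.8% of its dyskerin cDNAs and 5.997% and 5.06% of its GAR1 cDNAs, a ratio of means of 4.98. SNORA44 held 2.83% and 4.01% in dyskerin and 0.293% and 0.695% in GAR1, a ratio of 6.93. SNORA61, with 2 matches, held 27.04% and 16.4% in dyskerin and 14.2% and 15.1% in GAR1, a ratio of 1.48. Both dyskerin libraries lay above both GAR1 libraries in all 3 RNAs, as they did in 82 of 114 H/ACA snoRNAs with such a match (71.9%), the 3 included, and they lay below in 2 (1.75%). With the match alone and no flank the groups overlapped in SNORA16A and SNORA61, and with 10 nt on each side they did not overlap in any of the 3.

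**Figure D4:**
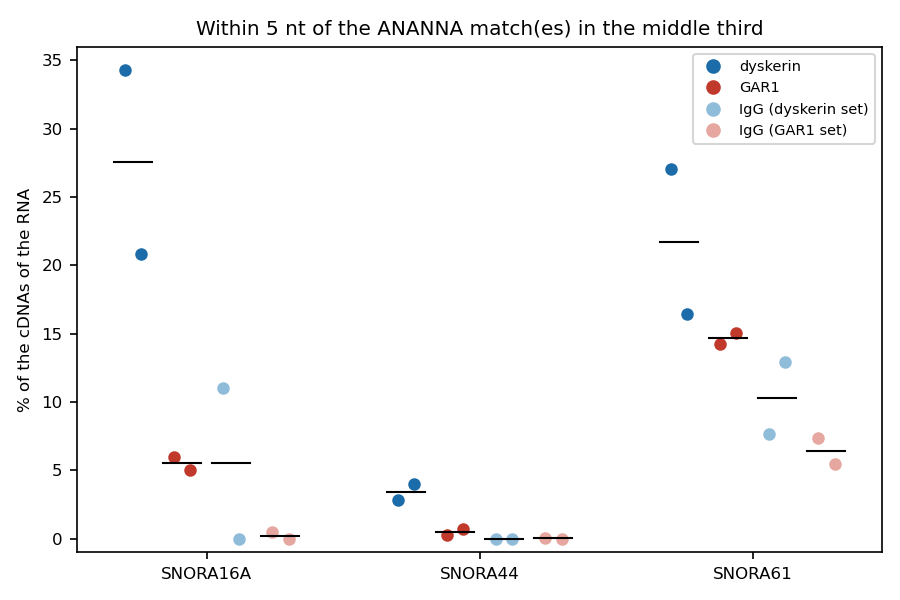
Share of each H/ACA RNA's cDNAs (%, vertical axis) within 5 nt of an ANANNA match in its middle part, with a point per library in 4 groups and a line at the mean of 2. Dyskerin stood at 34.3% and 20.8% in SNORA16A, against 5.997% and 5.06% in GAR1, and the first dyskerin IgG library at 11.02%.

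The IgG sets differed in part in the same way, and set and antibody cannot be told apart at these positions. In the window, SNORA16A held 11.02% and 0% of the dyskerin IgG cDNAs and 0.467% and 0% of the GAR1 IgG cDNAs, and SNORA61 held 7.69% and 12.96%, and 7.35% and 5.43%. SNORA44 held 0% in both dyskerin IgG libraries, and 0.0606% and 0% in the GAR1 IgG libraries. Pooled within each set, the IgG libraries had the higher share on the same side as the antibody at 3 of the 8 positions that leaned to dyskerin, with both sets at 0 at 4 more, and at 13 of the 14 that leaned to GAR1. The pooled dyskerin IgG set held only 284, 260 and 1751 cDNAs in SNORA16A, SNORA44 and SNORA61, so single positions there rested on few cDNAs.

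The base under the crosslinks differed between the RNAs. In SNORA44 C, 26.3% of the nucleotides, carried 55.6% and 41.2% of the dyskerin cDNAs, 47.8% and 35.9% of the GAR1 cDNAs and between 46.9% and 62.7% of the IgG cDNAs. In SNORA61 U, 29.6% of the nucleotides, carried 37.1% and 35.8% in dyskerin, 33.3% and 30.4% in GAR1 and between 37.4% and 52.3% in IgG. In SNORA16A U made up 30.3% of the nucleotides and carried 22.5% and 17.8% in dyskerin and 11.1% and 13.4% in GAR1. In 3 of the IgG libraries it carried between 5.10% and 8.05%, and in the second GAR1 IgG library, with its 50 cDNAs at position 93, it carried 61.5%.

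SNORD99, the C/D RNA of the locus, was crosslinked by dyskerin between positions 26 and 45 and by GAR1 between positions 1 and 46. Positions 36 and 37, which lie 5 and 4 nt before the second GATGA, held 39 and 41 of 98 cDNAs in the first dyskerin library and 22 and 18 of 56 in the second. In GAR1 they held 49 and 47 of 189, and 132 and 130 of 532. Position 36 alone held 39.5% ± 0.361 of the RNA in dyskerin and 25.4% ± 0.788 in GAR1 (SD, n = 2). With GAR1 the 5′ end was crosslinked as well. The first 10 nt held 39.7% (95% Wilson interval 33.0% to 46.8%) and 37.6% (33.6% to 41.8%) of the GAR1 cDNAs, and no called site in dyskerin. Position 1 there had 42 and 98 GAR1 cDNAs, and position 2 had 22 and 79. The dyskerin libraries held 98 and 56 cDNAs in this RNA in all, with called sites of 1 cDNA at positions 33 and 44 in the first. The 3 sites of the first GAR1 IgG library, with 5 cDNAs, lay at 33, 35 and 40. No IgG library reached the 10 cDNAs set as the minimum for a share, so neither position measure was tested for this RNA.

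**Figure D5:**
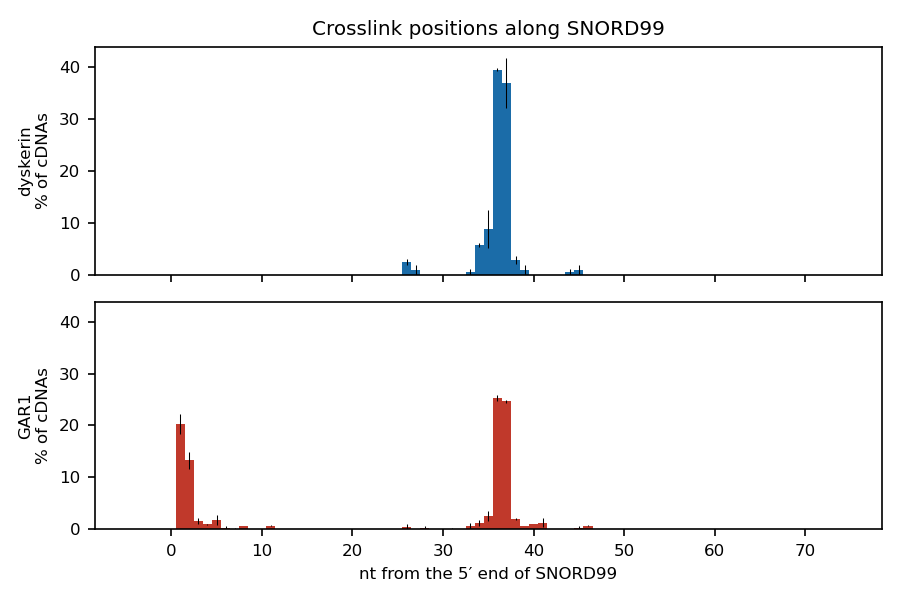
Share of SNORD99 cDNAs (%, vertical axis) at each position from the 5′ end (horizontal axis, in nt) for dyskerin and GAR1, with bars for the mean of 2 libraries and black lines from the lower to the higher. Position 36 stood at 39.5% in dyskerin and 25.4% in GAR1, and position 1 at 20.3% in GAR1 with no called site in dyskerin.

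SNHG12 itself, the host, was nearly empty. Outside its snoRNAs it had 12 cDNAs in the second dyskerin library, 1 and 25 in the GAR1 libraries, 3 in the first GAR1 IgG library and none in the other 4 libraries. All 14 of these sites lay 6 to 13 nt upstream of a snoRNA, and 38 of the 41 cDNAs lay upstream of SNORA61, in the short stretch of intron that separates it from exon 4. Beyond 20 nt of a snoRNA no site was called in any exon or intron of SNHG12 in any of the 8 libraries, over 3747 nt of annotated exon. Of 31 annotated host lncRNAs looked at in this way, 9 had exon sites in both dyskerin libraries and 0 in both GAR1 libraries. Among the 9, SNHG4, SNHG5, SNHG6 and SNHG20 also had 3, 4, 3 and 3 exon cDNAs in the first dyskerin IgG library. The first dyskerin library had 24, 11, 24 and 17, which is fewer per peak cDNA for each. SNHG14 had 2 in the first GAR1 IgG library, and the rest of the 9 had none in IgG. SNHG3, the host of SNORA73A and SNORA73B, had 101 and 206 exon cDNAs in dyskerin and none in the other 6 libraries. Sites were called gene by gene in each library, and signal below that call is not seen.

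In the clusters, runs of neighbouring sites that were called in each library, each H/ACA RNA was covered by 1 cluster in all 4 antibody libraries, 112 to 130 nt wide. SNORA44 clusters were 33 to 59 nt wide in the 4 IgG libraries, and SNORA16A was split in 2 in each of them. SNORA61 was covered by 1 cluster of 70 nt in the first dyskerin IgG library and 1 of 120 nt in the first GAR1 IgG library. In the second library of each IgG set it was split in 2.

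Copies of the members elsewhere in the genome took almost no signal. SNORA16A has 3 partial copies of at least 80.8% identity, the best of them 89.9% identical over 129 nt in SNORA16B (chr1:212352818-212352946, plus strand), which had 3 cDNAs in the second dyskerin library, 6 in the second GAR1 library and none elsewhere. SNORA44 has 1 copy, 90.2% identical over 92 nt (chr1:151527839-151527929), with 3 cDNAs in the second GAR1 library. No copy of SNORA61 or SNORD99 was found.

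The genes whose log2(CPM + 1) most resembled each member over the 8 libraries were SNORA13 and SNORA73A for SNORA16A (Pearson r = 0.996 and 0.995), SNORA7A and SNORA3A for SNORA44 (0.998 and 0.988), and MIR1248 and SNORA63 for SNORA61 (0.988 and 0.967). For SNORD99 they were RNU11 and CD96 (0.992 and 0.991), and for SNHG12 ENSG00000259033 and EYA4 (0.941 and 0.929). The 8 libraries differed in antibody and depth for all genes alike, so these are descriptions only.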

How the data were processed

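iCLIP was made from U2OS nuclei in 8 libraries. Per the labels and the study's methods, the authors trimmed reads with cutadapt, aligned them with STAR 2.7.0e to GRCh38 and called crosslink sites with iCount in each library by itself, at a false discovery rate of 0.05. The deposited values are counts of cDNAs per significant site, and the cDNA counts per cluster were used as an alternative. Sites below significance are not listed, so no upper limit is given for a share of 0.

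Sites were assigned by strand to GENCODE 44 and 100 further RefSeq snoRNAs, short RNAs first, with 5 nt upstream. Summed counts were fitted with edgeR 4.0.16 (TMM, all 8 libraries, 4 residual degrees of freedom, at least 10 cDNAs in at least 2 libraries, Benjamini-Hochberg). DESeq2 1.42.0, scaling to total cDNAs, other filters and margins, and leaving out each library were tried. Shares were compared by exact permutation tests (SciPy 1.17.1). Of 13 planned measures 11 could be run. The correlation between deviations of same-numbered replicates ran from −0.0822 to 0.100, so the samples were not paired by number. The labels do not say whether same-numbered libraries were prepared together. Replicates of every group differed by more than sampling noise (chi-square over genes). Copies were sought with BLAST 2.17.0+. The named genes were all 5 members, their 2 most similar genes and the 3 leading positions per antibody. Members, lists and windows were chosen with earlier results of these data known.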

Additional observations from a re-analysis of the deposited data

How the results depend on the processing

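Which genes passed depended strongly on the fit. Genes called in dyskerin against IgG numbered 0 with TMM, 7 with scaling to total peak cDNAs, 1 with no filter, 772 with a minimum of 50 cDNAs (1 of them a member, SNORA61), 3 with sites of at least 3 cDNAs and 0 to 1 without single libraries. In GAR1 against IgG they numbered 0, 12 with total scaling, 87 with DESeq2, 2 with no filter, 24 with a minimum of 50 cDNAs, and 0 to 809 without single libraries, when 0 to 4 members were called, both maxima without the first GAR1 library. In dyskerin against GAR1 they numbered 3381 (3103 higher), 3575 with DESeq2 (all higher), 5986 with total scaling (5810 higher), 419 with no filter (none higher), 15 with the replicate block (none higher), and 50 to 3422 without single libraries, the lowest without the second GAR1 library. The members called there were 4, 0 with DESeq2, 2 with sites of at least 3 cDNAs, 1 with the replicate block and 0 to 4 without single libraries. Deviations of same-numbered replicates did not correlate, but whether those libraries were prepared together is not stated. Whether the block belongs in the fit is therefore open, and a call lost under it says nothing of the size of a difference.

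Directions also turned. In dyskerin against IgG, SNORA16A turned to a log2 fold change of 0.082 with DESeq2 and SNORA44 to 0.012 with exact annotated ends, and without single libraries they ranged from −3.38 to 0.075 and from −3.12 to 0.26. SNHG12 turned to −0.029 with DESeq2 and −1.51 with exact ends. In GAR1 against IgG, SNORA16A, SNORA44 and SNORA61 turned to −0.12, −0.047 and −0.63 with total scaling, −0.50, −0.36 and −0.99 with DESeq2, and −0.37, −0.27 and −0.87 with a minimum of 50 cDNAs. SNORA61 also turned to −0.24 with sites of at least 3 cDNAs, and SNHG12 to −0.19 with total scaling and −1.28 with DESeq2. Without either dyskerin library the 3 H/ACA RNAs turned as well, within ranges of −0.18 to 4.70, −0.16 to 4.86 and −0.69 to 4.19, and SNHG12 without the first, within −0.58 to 9.17. In dyskerin against GAR1 SNHG12 turned to 0.83 with DESeq2. The cause was not tested.

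Of the shares, counting each site once brought 8 measures past the threshold (adjusted p = 0.0393, exact permutation test). Depth can change the number of called sites, and its part in this was not tested. None passed with libraries exchanged only within sets, a test chosen after seeing the data. The 8 included the locus shares, at 5.12 points for SNORA16A, 8.69 for SNORA44, −18.7 for SNORA61 and 4.07 for SNORD99. The others were the shares past the midpoint, at 37.0 for SNORA44 and 24.3 for SNORA61, and the first 10 nt, at −4.43 for SNORA16A and −19.2 for SNORA44. The share of SNORA16A past the midpoint turned to 9.74 points under that setting, to 6.72 with only the first library of each IgG set, a setting chosen after seeing the data, and ranged from −7.27 to 7.21 without single libraries. The first 10 nt turned to 1.77 in SNORA44 and 2.77 in SNORA61 with exact ends, where positions of 0 and below are lost, and to −4.00 points for the SNHG12 share, which then takes them in. Without single libraries SNORA61 there ranged from −2.20 to 1.63. The shares of SNORA44 and SNORA61 past the midpoint kept their direction under every alternative run, from 13.97 to 20.1 and from 8.39 to 9.86 points without single libraries. The second IgG libraries, with 8183 and 10701 cDNAs, limit what IgG can show.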
